A study of Mus musculus with 64 samples.

Results

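DNA methylation in the mammalian brain is set by a small group of enzymes and binding proteins, and 9 of their genes were followed here through chronic corticosterone (CORT) treatment of mice. They were chosen by symbol: the writers Dnmt1, Uhrf1, Dnmt3a and Dnmt3b, the erasers Tet1, Tet2 and Tet3, and the readers Mbd1 and Mbd2. All 9 were measured in the dorsal hippocampus (dHPC), among 18283 genes, and in the ventral hippocampus (vHPC), among 21088 genes. The tissue was profiled by RNA-seq in 64 libraries, 4 in each of 16 groups formed by sex, genotype, treatment and region. WT mice were C57BL/6 and hMet mice were heterozygous for the human Val66Met variant of brain-derived neurotrophic factor (BDNF). CORT was given at 25 mg/l in drinking water with 1% ethanol for 6 weeks, starting at 2 months of age, and vehicle mice drank the 1% ethanol alone. The series' design text instead gives a shorter treatment and the label text fewer replicates than the titles list. Each library held pooled RNA from 2 animals, so a library is not a single mouse.

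Methyl groups are placed on cytosines that precede guanines (CpG sites). DNMT3A and DNMT3B write new marks, and DNMT1 copies existing ones after DNA replication, guided to the newly made, hemimethylated DNA by UHRF1. TET enzymes oxidise methylcytosine and so start its removal, and proteins with a methyl-CpG-binding domain, such as MBD1 and MBD2, read the mark and recruit repressor complexes. In the adult brain DNMT3A and the TET enzymes are active in postmitotic neurons, while UHRF1 is best known from dividing cells.

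The values analysed were the authors' limma-voom results for CORT against vehicle, 1 table for each of 8 combinations of sex, genotype and region. A fold change is given on the log2 scale and a positive value was read as higher with CORT. Levels in single libraries were not analysed here, so neither the spread among the 4 libraries of a group nor their depth is known, and errors are limma's moderated standard errors (SE). The residual degrees of freedom were 24 in the dHPC, as 32 libraries in 8 groups give, and 22 in the vHPC, which would fit 30 libraries, and which 2 were left out is not stated in the sources used here. The 8 comparisons share no control libraries. As a check of tissue and treatment, 6 markers of hippocampal neurons averaged 5.59 to 10.49 log2 CPM (dHPC) and 6.17 to 10.41 (vHPC), and Fam107a, a glucocorticoid-induced gene, rose in all 4 male comparisons, by 0.77 to 0.91. Of 7 glucocorticoid-responsive genes, 3 or 4 were called in each male comparison, all higher but Per1 in the vHPC of hMet males (-0.19). In females none was called in 3 comparisons and 1, Sult1a1 (0.51), in the vHPC of hMet females. The thalamic markers Tcf7l2 (-1.87) and Shox2 (-3.08) were lower with CORT in the dHPC of WT females, where no member was called. In the dHPC of hMet males all 3 thalamic markers had estimates above 0, from 0.48 to 1.22, and were not called. The part of neighbouring tissue in the responses of the members was not tested.

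Most of the 9 genes were not called for a response to corticosterone in any comparison. A missing call does not show an unchanged level, above all in the dHPC, where the Tet2 intervals reached from -0.63 to 0.58. At an unadjusted p below 0.05, 5 of 72 member tests were called, all of them in hMet males and all lower with CORT. In the dHPC of hMet males the writers Dnmt3b, Uhrf1 and Dnmt3a fell, and in the vHPC of hMet males Uhrf1 and the reader Mbd2 fell. These 5 of 72 tests are 6.94%, beside 6.996% of 157484 tests over all genes, so the overall share lay at the background. None of the 9 genes passed limma's Benjamini-Hochberg adjusted p of 0.05, the lowest being 0.169 (Mbd2, vHPC of hMet males).

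**Figure D1:**
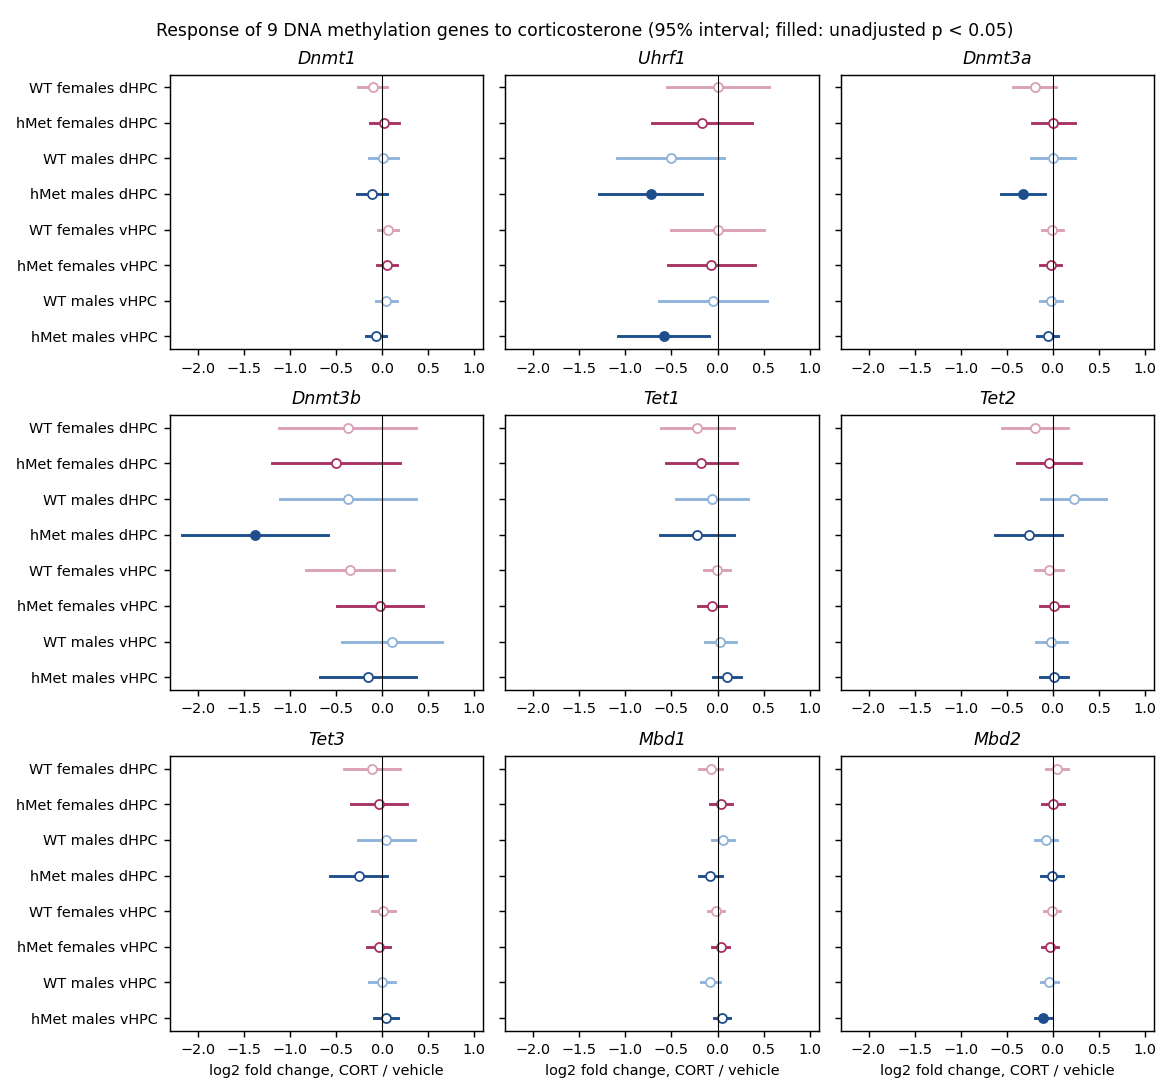
Response of each gene to CORT in the 8 comparisons. Each row is a comparison, the x axis is the log2 fold change of CORT over vehicle, lines are 95% intervals from the moderated SE and filled points have an unadjusted p below 0.05. The 5 filled points are all in hMet males (dark blue) and all lie below 0, from -0.11 for Mbd2 to -1.38 for Dnmt3b.

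The share of all genes called differed widely between comparisons. For hMet males it was 6.34% in the dHPC and 18.3% in the vHPC, and for WT males 4.55% and 7.24%. For WT females it was 6.48% in the dHPC and 3.18% in the vHPC, and for hMet females 3.23% and 5.66%. Against these, 3 of 9 members were called in the dHPC of hMet males and 2 of 9 in the vHPC of hMet males, and no member was called in the other 6 comparisons. When a fold change above 1.3 was also required, Dnmt3b and Uhrf1 remained in the dHPC of hMet males, where 2.93% of all genes passed. Uhrf1 remained in the vHPC of hMet males, where 4.96% passed. The paper states the same cutoffs but reports fewer genes in both comparisons, so its calls were not reproduced by this rule. Whether Dnmt3b and Uhrf1 are among the genes called in the paper was not tested.

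The 3 writers called in the dHPC of hMet males are shown by the DNA around their transcription starts. Methylation of this DNA was not measured here. The windows are RefSeq promoters on GRCm38.p6, from 250 bases before to 50 bases after a start, 5′ to 3′ on the plus strand, with each CpG in capitals. Dnmt3b lies at chr2:153649199-153649498, both starts of Uhrf1 at chr17:56303087-56303386 and chr17:56304063-56304362, and the first start of Dnmt3a at chr12:3806730-3807029.
Dnmt3b: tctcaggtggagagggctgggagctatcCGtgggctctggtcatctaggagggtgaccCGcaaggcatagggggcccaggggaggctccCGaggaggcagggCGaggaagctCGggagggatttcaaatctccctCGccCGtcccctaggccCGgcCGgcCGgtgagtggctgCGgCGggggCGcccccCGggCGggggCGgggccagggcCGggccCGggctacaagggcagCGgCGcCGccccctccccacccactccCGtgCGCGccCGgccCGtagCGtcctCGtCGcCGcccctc
Uhrf1, first start: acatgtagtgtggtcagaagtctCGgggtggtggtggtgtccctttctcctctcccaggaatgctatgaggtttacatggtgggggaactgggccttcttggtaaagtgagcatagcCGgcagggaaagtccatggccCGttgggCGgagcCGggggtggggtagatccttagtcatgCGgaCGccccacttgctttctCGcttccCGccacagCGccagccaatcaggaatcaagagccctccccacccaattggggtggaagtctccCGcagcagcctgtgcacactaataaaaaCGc
Uhrf1, second start: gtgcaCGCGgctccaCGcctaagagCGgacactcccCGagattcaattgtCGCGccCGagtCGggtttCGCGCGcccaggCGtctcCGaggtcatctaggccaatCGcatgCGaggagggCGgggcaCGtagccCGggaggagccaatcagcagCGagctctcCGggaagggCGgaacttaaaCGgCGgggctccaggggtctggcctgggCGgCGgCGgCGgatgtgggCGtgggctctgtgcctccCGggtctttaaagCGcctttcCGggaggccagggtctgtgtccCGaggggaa
Dnmt3a: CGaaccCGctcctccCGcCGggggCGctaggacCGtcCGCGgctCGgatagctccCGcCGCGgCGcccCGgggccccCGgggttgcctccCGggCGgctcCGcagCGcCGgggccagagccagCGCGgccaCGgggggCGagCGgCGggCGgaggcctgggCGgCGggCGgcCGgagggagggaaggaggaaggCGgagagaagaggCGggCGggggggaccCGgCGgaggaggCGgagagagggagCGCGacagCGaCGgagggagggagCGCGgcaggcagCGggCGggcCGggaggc

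The first Dnmt3a window held 46 CpGs, more than 98.4% of 32851 windows of this length, whose median was 7. Its other windows, not shown, held 47 and 18. Dnmt3b held 30, and the Uhrf1 windows held 12 and 33. RefSeq windows were found for 7 of the 9 members, 12 windows in all. The E2F motif TTTCGCGC, sought on both strands and overlapping CpGs by its own letters, was present in the second Uhrf1 window and in the third Dnmt1 window, and in 0.323% of all windows. Its variant TTTGGCGC was present in that Dnmt1 window and in 0.514% of all windows. The hexamer AGAACA, the core bound by the glucocorticoid receptor, was sought on both strands. It was present in the third Dnmt1 window and in the Tet2 window. The other member windows, those of Dnmt3b, Uhrf1 and Dnmt3a among them, lacked it, while 18.97% of all windows held it. A match is a string in a window and not a measured binding site.

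Of the 9 genes, 7 were well covered by reads and 2, Uhrf1 and Dnmt3b, were sparsely covered. The authors' mean over the libraries of a region, in log2 CPM (counts scaled to library size, not to gene length), was 0.11 in the dHPC and -0.15 in the vHPC for Uhrf1, and -1.01 and -0.60 for Dnmt3b. Dnmt3a averaged 5.48 and 5.77 on this scale. Dnmt1 averaged 5.41 and 5.60 log2 CPM, Tet3 5.39 and 5.55, Mbd1 5.17 and 5.26, and Mbd2 5.27 and 5.08. Tet2 averaged 4.22 and 4.98 and Tet1 3.24 and 3.61.

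Between genes, levels can be compared only per length. On the scale of log2 CPM per kb of annotated exon (GENCODE M21), Mbd2 was highest, at 3.59 in the dHPC and 3.40 in the vHPC, followed by Dnmt1 at 2.53 and 2.72 and Mbd1 at 2.42 and 2.51. Dnmt3a (1.42 and 1.71), Tet3 (1.33 and 1.49), Tet2 (0.14 and 0.90) and Tet1 (-0.71 and -0.34) followed, and Uhrf1 (-1.98 and -2.24) and Dnmt3b (-3.36 and -2.95) were last. The order was the same in both regions. Which neighbours in it differ beyond their spread cannot be said, since the authors' means carry no error. By longest transcript in place of all exons, 7 of 9 genes kept their place and Dnmt1 and Mbd1 changed places.

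Both regions were fitted and normalised separately, so a level difference between them is given without a test. Over 18257 genes measured in both, the vHPC mean minus the dHPC mean had a median of -0.01 log2 CPM and quartiles of -0.21 and 0.21. Tet2 stood 0.76 higher in the vHPC, above 95.7% of genes, and Dnmt3b (0.41), Tet1 (0.38) and Dnmt3a (0.29) were also beyond the upper quartile. Uhrf1 stood lower in the vHPC, by -0.26, outside the lower quartile, and Mbd2 by -0.19. Dnmt1 (0.18), Tet3 (0.16) and Mbd1 (0.09) lay between the quartiles.

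**Figure D2:**
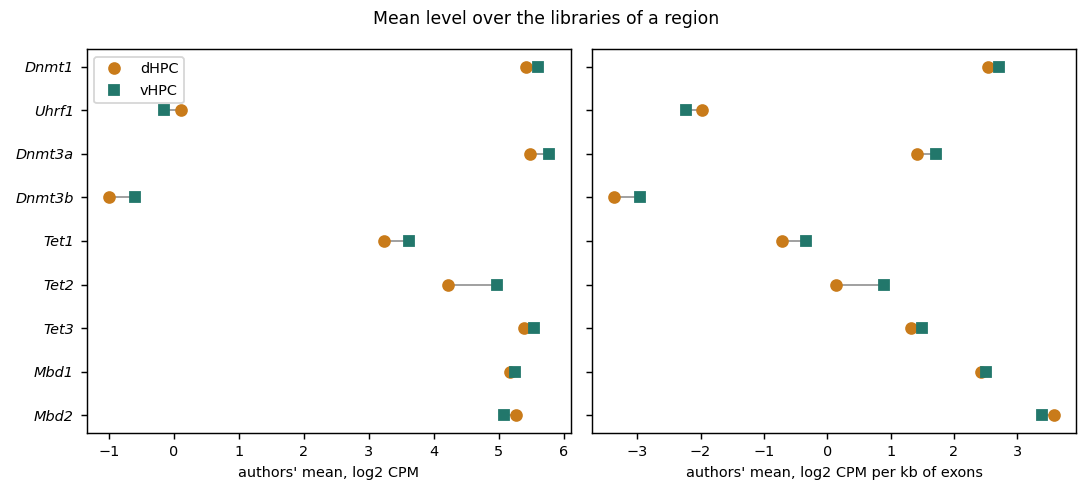
Mean level of each gene in the dHPC (circles) and vHPC (squares), as log2 CPM on the left and as log2 CPM per kb of exon on the right. Points are the authors' means over the libraries of a region and have no error bars because the tables give none. Uhrf1 and Dnmt3b lie below the other 7 genes on both scales, and Tet2 has the widest gap between regions.

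Dnmt3b, a de novo methyltransferase, had the largest response of the 9 genes. In the dHPC of hMet males its log2 fold change was -1.38 ± 0.39 (SE), a fall to 0.385 of the vehicle level, with a 95% interval from -2.17 to -0.59. It ranked 55 among 18283 genes by p, and its adjusted p by limma was 0.418. WT males (-0.37), WT females (-0.37) and hMet females (-0.50) also had estimates below 0 in the dHPC, each with an interval that included 0. The vHPC values were -0.15 for hMet males, 0.11 for WT males, -0.35 for WT females and -0.02 for hMet females. The estimate was thus below 0 in 7 of 8 comparisons, but only that in the dHPC of hMet males was called. Dnmt3b had few reads in the dHPC, with a mean near 0.5 CPM, and its SE was the largest of the members in every dHPC comparison.

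Uhrf1, the partner that brings DNMT1 to newly replicated DNA, was the only member called in both regions of a group. In hMet males it fell by 0.72 ± 0.27 (SE) in the dHPC (95% interval -1.28 to -0.17, adjusted p by limma 0.655). The fall in the vHPC was by 0.58 ± 0.24 (95% interval -1.08 to -0.09, adjusted p by limma 0.194). WT males had -0.51 ± 0.28 in the dHPC, with an interval up to 0.07, and -0.05 ± 0.29 in the vHPC. In females it lay between -0.16 and 0.00 in all 4 comparisons. The intervals of females reached from -0.71 to 0.56 over both regions. No male minus female difference of Uhrf1 was called in any of the 4 tests.

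Genes of dividing cells were called lower in both comparisons in which Uhrf1 was called, and also in WT males, in which it was not. Of 9 such markers, 3 were called lower and 1 higher in the dHPC of hMet males, and 5 lower and none higher in the vHPC of hMet males. Over all genes, 6.34% (dHPC) and 18.3% (vHPC) were called in either direction in hMet males, and 4.55% and 7.24% in WT males. In WT males 2 markers were called lower in the dHPC and 1 in the vHPC, where all 9 estimates were below 0. In females none was called. The marker median in WT males was -0.46 (dHPC) and -0.32 (vHPC). Uhrf1 was at -0.51 in the dHPC of WT males (interval -1.09 to 0.07) and at -0.05 in the vHPC (interval -0.63 to 0.54). Each interval included both 0 and the marker median of its region. The missing calls of Uhrf1 in WT males therefore do not show that it was unchanged while the markers fell. Top2a, a topoisomerase of dividing cells, had log2 fold changes of -0.97 (dHPC) and -1.33 (vHPC) in hMet males. Mki67, the gene of the Ki-67 proliferation antigen, had -0.79 and -0.65 there. Cenpf, a kinetochore gene, had -0.78 and -0.41, and it was also called lower in WT males, at -0.69 (dHPC) and -0.65 (vHPC). The exception was Rrm2, a ribonucleotide reductase subunit, at 0.68 in the dHPC of hMet males. These named markers had low mean levels. Top2a averaged 0.81 log2 CPM in the dHPC and 0.32 in the vHPC, and Mki67 1.14 and 1.16. Cenpf averaged 0.32 and 0.46, and Rrm2 0.59 and 0.25.

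**Figure D3:**
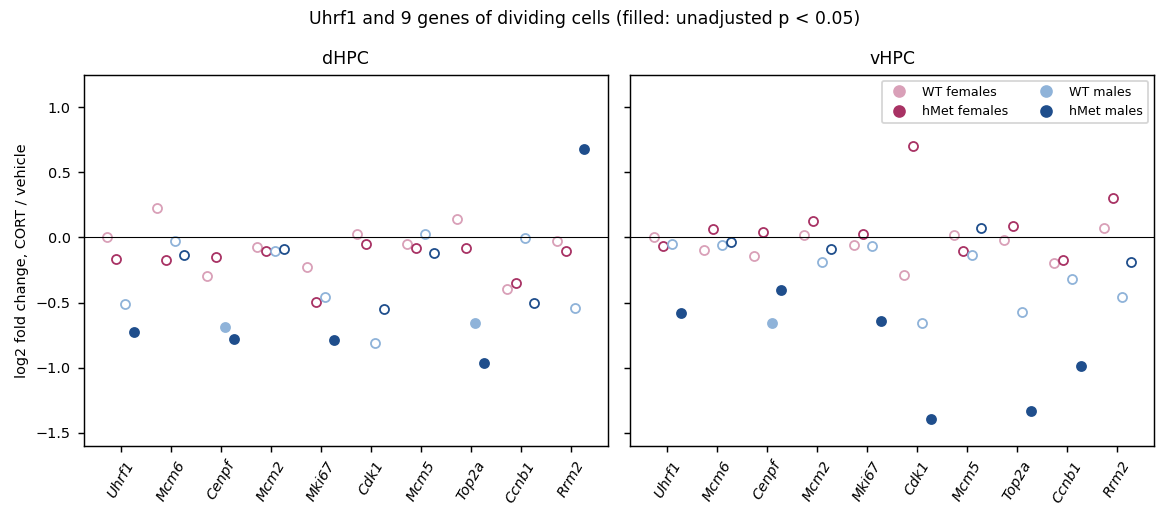
Uhrf1 and 9 marker genes of dividing cells, dHPC on the left and vHPC on the right. The y axis is the log2 fold change of CORT over vehicle, colours give sex and genotype, and filled points have an unadjusted p below 0.05. In hMet males Uhrf1 (-0.72 and -0.58), Mki67 (-0.79 and -0.65) and Top2a (-0.97 and -1.33) are low in both regions, and Rrm2 (0.68 in the dHPC) is not.

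The median of the 9 markers of dividing cells in hMet males was -0.50 (dHPC) and -0.41 (vHPC), and in WT males -0.46 and -0.32, where the median of all genes lay within 0.01 of 0. Among immature neuron markers, Dcx, a microtubule protein of newborn neurons, stood at -0.37 (dHPC) and -0.21 (vHPC) in hMet males. Of 6 such markers, 3 were called lower in that dHPC comparison, and the other 3 had estimates above 0, up to 1.52 for Calb2, which was not called. In the vHPC of hMet males Dcx was the only one called lower and Neurod1 was called higher (0.34). Microglial markers were called lower in males of both genotypes. In hMet these were 3 of 6 (dHPC) and 6 of 6 (vHPC), and in WT, where no member was called, 5 of 6 and 3 of 6. Beside these counts, 6.34% (dHPC) and 18.3% (vHPC) of all genes were called in hMet males, and 4.55% and 7.24% in WT males. In the vHPC of hMet males 5 of 5 oligodendrocyte markers were called lower, and all 6 markers of hippocampal neurons were above 0, with a median of 0.35 and 2 called higher. The part of these cell types in the fall of Uhrf1, Dnmt3b or Mbd2 was not tested, and in bulk tissue fewer cells of a type and less RNA per cell cannot be told apart.

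By the likeness of its 8 moderated t values, Uhrf1 was closest to Ntn3 (Pearson r = 0.96), Cacfd1 (0.93) and Mpeg1 (0.91), out of 13882 genes averaging at least 1 log2 CPM in both regions. Uhrf1 itself lies below that minimum. Of the markers of dividing cells, Top2a, Cdk1, Ccnb1, Rrm2 and Cenpf do too, so they could not be among the genes found. With only 8 comparisons, r above 0.9 was reached by 5 genes, and this is a description.

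Dnmt3a, the main de novo methyltransferase of neurons, fell by 0.32 ± 0.12 (SE) in the dHPC of hMet males (95% interval -0.56 to -0.08, adjusted p by limma 0.640), to 0.800 of its vehicle level. In the same region WT males (0.00) and hMet females (0.01) had estimates near 0, each with an interval from -0.23 to 0.24. WT females had -0.20 with an interval up to 0.04. In the vHPC all 4 estimates lay between -0.05 and -0.01, with SEs of 0.05 to 0.06. The response was therefore called in a single comparison, and the vHPC, where errors were smaller, gave no call.

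Genes with more annotated exon were as a class lower with CORT in the dHPC of hMet males. Dnmt3a has 16642 bases of annotated exon over all its transcripts, the longest of which has 9685. Tet1 (15457), Tet2 (16870) and Tet3 (16695) have similar exonic lengths. Over 14131 genes the Spearman correlation of exonic length with log2 fold change was -0.33 there. With genes split by length into 10 bins, the median was 0.07 in the shortest and -0.07 in the longest bin. In the dHPC of WT males the correlation had the other sign, 0.29, and in the vHPC of hMet males it was 0.20. Less the median of its own length bin, an alternative chosen after seeing the data, Dnmt3a was -0.26 in the dHPC of hMet males and was still called. The same step left Dnmt3b at -1.36 and Uhrf1 at -0.73. It moved Tet1 from -0.22 to -0.16, Tet2 from -0.27 to -0.20 and Tet3 from -0.25 to -0.19 in that comparison. It brought Dnmt3a in the vHPC of hMet males from -0.05 to -0.12, past the threshold.

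Dnmt1, the maintenance methyltransferase, was not called in any comparison. Its estimates ran from -0.11 in the dHPC of hMet males to 0.07 in the vHPC of WT females, with SEs of 0.05 to 0.08. All 4 writers were below 0 in the dHPC of hMet males, with a median of -0.52.

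The erasers gave no call in any of 24 tests. In the dHPC of hMet males Tet1 was -0.22, Tet2 -0.27 and Tet3 -0.25, each with an interval that included 0, and in WT males Tet2 was 0.22. In the vHPC Tet1 reached 0.11 in hMet males, and all other vHPC estimates of the erasers lay between -0.06 and 0.04. The erasers were measured less precisely in the dHPC: the SE of Tet1 was 2.65 times its vHPC value, that of Tet3 2.43 and that of Tet2 2.36, beside a median of 1.53 over all genes. Dnmt3a, at 2.10, shared this.

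The readers responded little. Mbd2, which recruits the nucleosome remodelling and deacetylase (NuRD) complex to methylated DNA, fell by 0.106 ± 0.041 (SE) in the vHPC of hMet males (95% interval -0.19 to -0.02, adjusted p by limma 0.169), a change of -7.07%. That comparison called 18.3% of all genes. Mbd2 was below 0 in 7 of 8 comparisons, the exception being the dHPC of WT females at 0.04. Mbd1 lay between -0.08 and 0.06 and was not called.

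Where the erasers, readers, Dnmt1 and Dnmt3a were measured most precisely, in the vHPC, their 28 intervals lay within -0.21 and 0.26, that is within -13.6% and 19.4% of the vehicle level. Larger mean changes of these 7 genes in whole vHPC tissue lie outside those 95% intervals. For Uhrf1 and Dnmt3b the intervals were far wider, and only that of Uhrf1 in hMet males did not include 0 there.

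In the dHPC of hMet males all 9 members had estimates below 0, with a median of -0.25, where 48.9% of all genes were below 0 and their median was 0.00. The median of the members in that region was 0.00 for WT males, -0.11 for WT females and -0.03 for hMet females. In the vHPC it ran from -0.05 in hMet males to -0.01 in WT females. These medians describe genes measured in the same libraries, which are not independent of each other. They are not centred by exonic length, which correlated with fold change in the dHPC of hMet males (Spearman -0.33).

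Whether the responses differed between groups was tested directly, from both estimates and their SEs, with adjustment over all genes. Between genotypes no member was called in 36 tests, while 4.84% (females dHPC), 3.36% (males dHPC), 4.87% (females vHPC) and 3.28% (males vHPC) of all genes were. The hMet minus WT difference closest to the threshold was that of Tet2 in the dHPC of males, -0.49 (95% interval -0.99 to 0.01). In the dHPC of males the hMet minus WT difference was -0.32 for Dnmt3a (95% interval -0.66 to 0.01) and -1.01 for Dnmt3b (95% interval -2.09 to 0.07). For Uhrf1 it was -0.22 in the dHPC and -0.53 in the vHPC, both with intervals that included 0. The calls in hMet males are therefore not shown to be absent from WT males.

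Between sexes no member was called in 36 tests either, beside 6.49% (WT dHPC), 5.22% (hMet dHPC), 4.33% (WT vHPC) and 15.6% (hMet vHPC) of all genes. The male minus female difference closest to the threshold was that of Dnmt3a in the dHPC of hMet mice, -0.33 (95% interval -0.66 to 0.01). For Dnmt3b it was -0.88 and for Uhrf1 -0.56 in that comparison. In the vHPC of hMet mice Uhrf1 differed by -0.52, with an interval from -1.20 to 0.17.

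Between regions 2 of 36 tests were called, both in hMet males, where 4.62% of all genes were. The vHPC minus dHPC difference was 1.23 ± 0.46 (SE) for Dnmt3b and 0.27 ± 0.13 for Dnmt3a, the fall being larger in the dHPC. The Benjamini-Hochberg adjusted p over all genes was 0.840 for both. Uhrf1 differed by 0.14 ± 0.36. In the other groups 3.12% (WT females), 4.05% (hMet females) and 1.64% (WT males) of all genes were called and no member was. Whether both regions came from the same animals is not given in the labels, and a shared animal would alter these SEs.

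Averaged over WT and hMet, the response of males was clearest for Dnmt3b and Uhrf1 in the dHPC. Dnmt3b had a mean log2 fold change of -0.87 ± 0.26 (95% interval -1.41 to -0.33, Benjamini-Hochberg adjusted p over all genes 0.253) and Uhrf1 of -0.62 ± 0.20 (95% interval -1.02 to -0.21, adjusted p 0.300), where 6.85% of all genes were called. In the vHPC of males Mbd2 had -0.07 ± 0.03 (adjusted p 0.169), where 20.5% were called, and Uhrf1 had -0.31 ± 0.19, not called. In females no member was called, beside 4.81% (dHPC) and 3.86% (vHPC) of all genes, and the lowest mean was that of Dnmt3b in the dHPC, -0.44 ± 0.25.

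**Figure D4:**
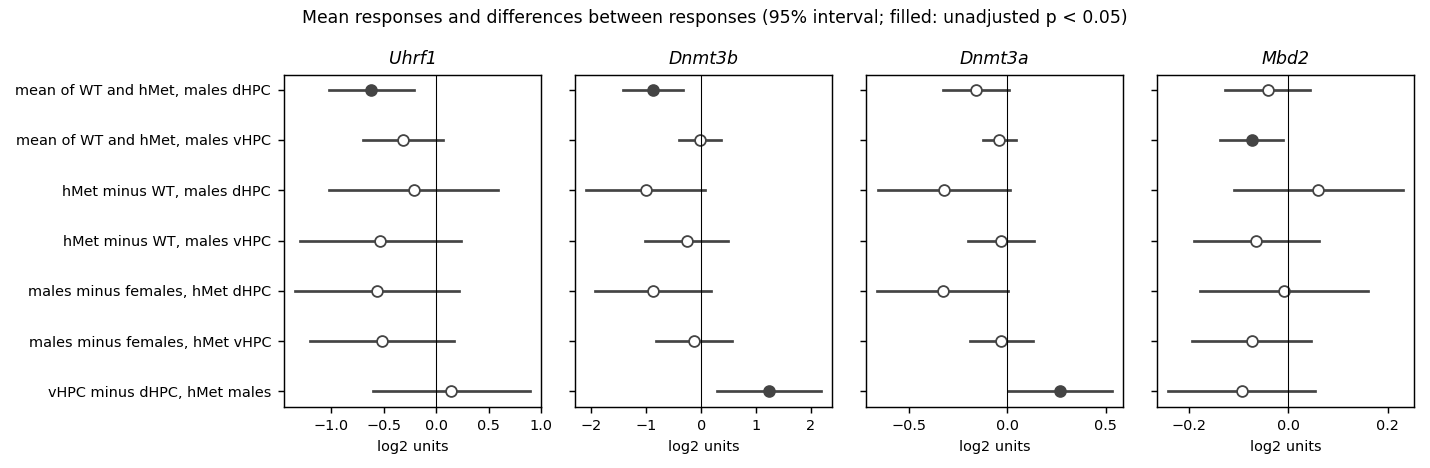
Mean responses over both genotypes and differences between responses for the 4 called genes, with a scale of its own in each panel. The x axis is in log2 units, lines are 95% intervals and filled points have an unadjusted p below 0.05. The mean is filled for Uhrf1 (-0.62) and Dnmt3b (-0.87) in the dHPC and for Mbd2 (-0.07) in the vHPC of males, the difference between regions is filled for Dnmt3b and Dnmt3a, and no difference between genotypes or sexes is.

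The wider methylation pathway showed scattered calls. Of 9 other genes of the reader families, 4 were called higher in the vHPC of hMet males and none lower. That comparison called 18.3% of all genes. Of the 9, 2 had estimates below 0, the lowest at -0.26, and were not called. Those called higher were Uhrf2, the paralogue of Uhrf1, by 0.20 (adjusted p by limma 0.0747), Zbtb38 by 0.17, Mbd5 by 0.21 and Zbtb33 (Kaiso) by 0.12. MBD5 and MBD6 carry the methyl-CpG-binding domain but are not known to bind methylated DNA through it. Uhrf1 and Uhrf2 thus moved in opposite directions in that comparison. In the dHPC Mbd6 was called lower in WT females (-0.38) and hMet males (-0.33), and Zbtb4 higher in WT males (0.17).

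Among partners of the writers, 3 of 44 tests were called, or 6.82%, beside 6.996% of tests over all genes. Cdca7, which with the remodeller HELLS opens chromatin for methylation, fell by 0.41 in the vHPC of hMet males (adjusted p by limma 0.0893). Pcna, the replication clamp, was called in females, higher in the dHPC of WT (0.15) and lower in the vHPC of hMet (-0.15).

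Of the genes of active demethylation, 5 of 104 tests were called, or 4.81%, beside the same 6.996%. Tdg, the glycosylase that excises oxidised methylcytosine, fell by 0.20 in the dHPC of hMet males. Smug1, a uracil glycosylase, was higher in WT males (0.24) and lower in WT females (-0.16) of the dHPC. Ung was lower in WT females of the dHPC (-0.60), and Apobec1 higher in hMet females of the vHPC (0.51).

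The methyl donor cycle, which supplies S-adenosylmethionine to the writers, also gave 5 calls in 104 tests, again 4.81%. Mtrr, which keeps methionine synthase active, was higher in WT females (0.20) and lower in hMet females (-0.21) of the dHPC. Ahcyl2 rose by 0.26 in the vHPC of hMet males, Mtr by 0.16 in the vHPC of WT males and Shmt2 by 0.13 in the vHPC of hMet females. The NuRD complex, which MBD2 recruits, gave 3 calls in 88 tests, or 3.41% beside the same 6.996%, all higher. They were Chd4 in the vHPC of WT males (0.19) and Mta3 (0.08) and Rbbp7 (0.10) in the vHPC of hMet males.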

How the data were processed

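RNA of the dHPC and vHPC was sequenced by the authors with a stranded kit, aligned with STAR to mm10 (GRCm38) and counted with featureCounts, and limma-voom was run by them. Versions are not given in the sources used here. The authors deposited, for each gene and comparison, a mean in log2 CPM, a log2 fold change with an unmoderated standard error, degrees of freedom, a moderated t score, and a p-value with its adjusted form. These are the authors' own comparisons, used because the deposited tables analysed hold no values per library, and no library depth can be given. Every deposited p-value was recomputed from its t and degrees of freedom.

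The moderated SE was taken as fold change over t. Differences and means of comparisons combined moderated SEs in quadrature, used the smaller degrees of freedom and were adjusted by Benjamini-Hochberg over all genes. Data simulated with those same SEs and independent errors checked only the calculation, and not the effect of shared animals or low counts. Calls are at an unadjusted p below 0.05, the study's threshold without its fold change minimum, and all tests are two-sided. All 9 members are named, and from other lists the called genes of lowest p, at most 4 a list, with more of a list named after seeing their values. The members and lists were chosen with earlier results of these data known. Positions and exonic lengths are from GENCODE M21 and promoters from RefSeq (GRCm38.p6). Python 3.11.15, pandas 2.3.3 and scipy 1.17.1 were used. Alternatives were a p of 0.01, a fold change above 1.3, adjusted p-values, a minimum of 1 log2 CPM, unmoderated SEs and centring.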

Additional observations from a re-analysis of the deposited data

Results flagged for a closer look

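In hMet males the response to CORT differed between regions for 2 writers by a test of the difference itself at an unadjusted p below 0.05. Dnmt3b had a vHPC minus dHPC difference of 1.23 (95% interval 0.28 to 2.18), from -1.38 in the dHPC and -0.15 in the vHPC. Dnmt3a had a difference of 0.27 (95% interval 0.00 to 0.53), from -0.32 and -0.05. Both had a Benjamini-Hochberg adjusted p of 0.840 over 18257 genes, and 2 calls among 36 tests of members is 5.56%. Over all genes the share called was 4.62% in hMet males and 1.64% to 4.05% in the other groups. Outlying libraries could not be looked for, as no values per library were analysed.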

How the results depend on the processing

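No paired analysis was possible because the tables hold no values per library; for the same reason no library was left out in turn. The 5 calls for CORT against vehicle became 1 at p below 0.01 (Dnmt3b), 3 with a fold change above 1.3, and 0 by adjusted p, over all genes or over those of at least 1 log2 CPM (which leaves out Uhrf1 and Dnmt3b). Unmoderated SEs or centring on the median of all genes left 5. The 2 differences between regions became 1 with unmoderated SEs (Dnmt3b), 0 at p below 0.01 and 0 by adjusted p. Of the differences between sexes, 1 was called after centring (Dnmt3a in the dHPC of hMet mice, adjusted p 0.915). The 3 mean responses became 0 by adjusted p. Among 72 single responses none changed its call with unmoderated SEs, and centring on the median of all genes turned 1, Mbd2 in the dHPC of hMet females, to 0.0046. Centring by bin of exonic length, added after seeing the data, turned 10 uncalled responses. In the dHPC these became 0.0019 (Tet2) and 0.012 (Tet3) in hMet females, and -0.012 (Tet3), -0.023 (Dnmt1) and -0.059 (Dnmt3a) in WT males. In the vHPC they became -0.011 (Tet3) and 0.0028 (Mbd2) in WT females, -0.026 (Tet3) in WT males, and -0.052 (Tet2) and -0.019 (Tet3) in hMet males.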
